A study of Mus musculus with 7 samples.

Results

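The tight junction barrier genes described here are 9 listed genes of the seal between neighbouring epithelial or endothelial cells, out of 55401 genes in the deposited count table. They were chosen by symbol from their known role, with earlier results of these data already known. All 9 were found in the table and passed the filter on low counts. RNA was sequenced from the lungs of 7 male C57BL/6 mice, 6 to 8 weeks old, with 1 library per mouse. All 7 mice had received bleomycin, a cytotoxic drug whose instillation injures the lung and is followed by fibrosis. The 4 mice of the BLM group had bleomycin alone. The 3 mice of the BLM+HBO group also breathed hyperbaric oxygen (HBO), which is oxygen given above normal pressure, at 2.5 ATA for 90 min per session in 14 daily sessions that began on day 7. Lungs were taken on day 21. The sample records place the BLM mice in the chamber without pressurized oxygen, while the study's methods call them untreated. Lungs without bleomycin were not analysed here, so the values compare injured lungs with each other and not with healthy ones.

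Tight junctions run as a belt around the upper part of epithelial cells and, in a looser form, along the contacts of endothelial cells. Claudins are the strands of the belt and set which ions and solutes pass between cells, while occludin and the JAM and ESAM proteins are further membrane parts. ZO-1 (encoded by Tjp1) and cingulin (encoded by Cgn) lie on the inner face of the membrane and tie the strands to actin. In the lung this barrier keeps fluid out of the air spaces, claudin-18 being the typical claudin of alveolar epithelium and claudin-5 that of endothelium.

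The library totals were between 18157161 and 26365969 counts, and 17465 genes were tested. BLM+HBO 2 was the treated library nearest to the BLM mice, with a chi-square per gene of 13.0 against BLM 4, below the lowest within a group (22.1). The lung label was checked with marker lists. Summed CPM, the counts scaled to the normalized size of each library, were 4337 to 5929 in BLM and 5373 to 6114 in BLM+HBO for 8 alveolar type 1 (AT1) markers, and 9019 to 16476 and 11443 to 28037 for 8 alveolar type 2 (AT2) markers. All 8 members of each list had reads.

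None of the 9 genes passed the study's limits for a changed gene, which ask for a fold change above 1.5 and an unadjusted P below 0.05, by edgeR's quasi-likelihood test. Over all tested genes, 6.29% passed them, 3.40% with a higher and 2.89% with a lower level in BLM+HBO. None of the 9 had an unadjusted P below 0.05, against 10.7% of all tested genes. In all 9 the CPM of the groups overlapped, while they did not overlap for 8.77% of all tested genes. At an adjusted P (Benjamini-Hochberg) below 0.05, edgeR called 0.0% of the tested genes and DESeq2 0.733%, and neither called any of the 9, whose lowest adjusted P by edgeR was 0.617. With 9 genes, counts of 0 are too few to set them apart from these shares.

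The group mean was higher in BLM+HBO for 8 of the 9 genes and lower for 1, Tjp1, while 51.2% of all tested genes had the higher mean in BLM+HBO. The median log2 fold change of the 9 was 0.12, beside 0.0071 over all tested genes. The genes share their mice and their cell types, so these 9 directions are not independent of each other. In lung tissue, fewer cells of a type and less RNA per cell cannot be told apart. The counts behind these values ran from 702 to 24905 reads per gene and mouse. The standard error (SE) of the log2 fold change was between 0.11 and 0.25, and for 6 of the 9 it was below the median of all tested genes (0.187).

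The 95% intervals give, around each estimate, the range of fold changes compatible with the values of these 7 mice. They ran over all 9 genes from a fold of 0.731 to a fold of 1.78. A decrease to a 1.5-fold lower level lay outside the interval of every one of the 9. An increase to a 1.5-fold higher level lay inside the interval of 3, Cldn3, Cldn7 and Cldn5, and outside that of the other 6.

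**Figure D1:**
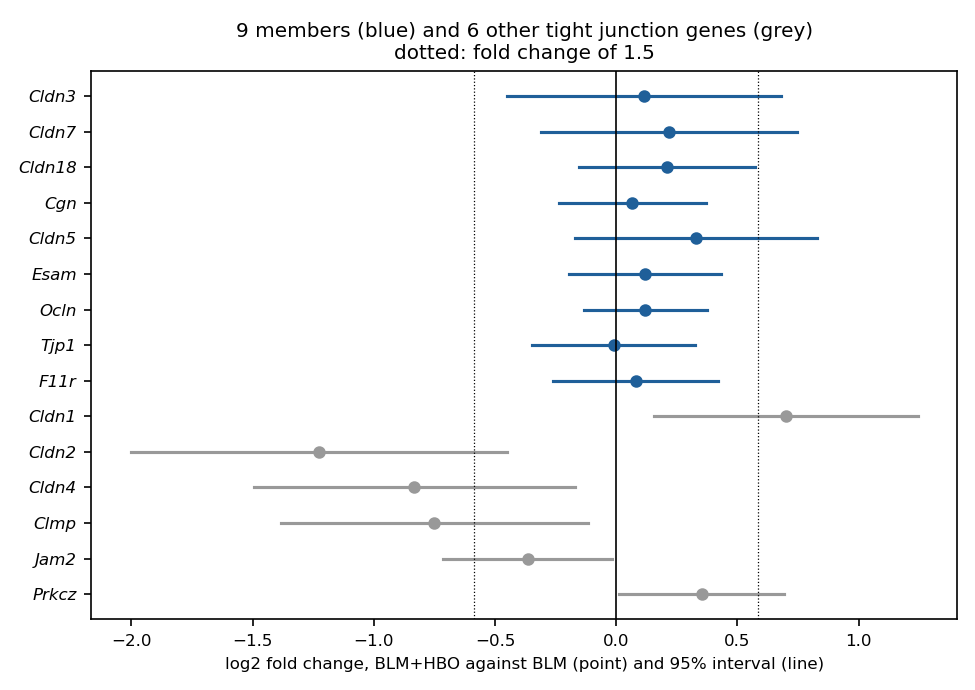
Log2 fold change of BLM+HBO against BLM (points) with the 95% interval (lines) for the 9 tight junction barrier genes (blue) and 6 other tight junction genes with unadjusted P below 0.05 (grey), with dotted lines at a fold change of 1.5. All 9 blue intervals cross 0, with Cldn5 farthest to the right at 0.33, and the grey points lie between -1.23 for Cldn2 and 0.70 for Cldn1.

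Promoter sequence was looked up for the 9 genes and for Cldn1, Cldn2 and Cldn4, since claudin genes are known targets of the SNAI and ZEB repressors of epithelial genes and since the treatment changes oxygen. RefSeq (GRCm38.p6) gave 300 bases, from 250 before to 50 after the start, for 11 of these 12 genes and for 8 of the 9, with no entry for Esam. The motifs searched on both strands were the SNAI/ZEB E-box CAGGTG, the core of the hypoxia response element (HRE, ACGTG or GCGTG), AP-1 (TGACTCA or TGAGTCA) and TEAD (GGAATG). Of all 32851 promoters in the RefSeq table, 20.2% held the E-box, 43.8% the HRE core, 5.2% AP-1 and 14.7% TEAD. Of the 11 promoters of these 8 genes, 5 held the E-box, 10 the HRE core, 1 AP-1 (F11r) and 1 TEAD (Cldn7). The genes with an E-box were Cldn3, Cldn7, F11r and Ocln, and only Cldn5 had no HRE core. Windows of 1 gene can overlap. Those of Ocln do, and an E-box and an HRE core that they share are counted in both. The median GC content of the 11 was 60.7% against 52.7% over all promoters, a difference whose part in these counts was not tested. A match is a stretch of letters and not a bound site. Shown are the promoters of the endothelial claudin, the alveolar claudin with its pair of starts, and the neighbours Cldn3 and Cldn4, whose values are set side by side further on. Each is written 5′ to 3′ on the gene's own strand, and capitals mark the motif matches.
Cldn5 (chr16:18776597-18776896, plus strand): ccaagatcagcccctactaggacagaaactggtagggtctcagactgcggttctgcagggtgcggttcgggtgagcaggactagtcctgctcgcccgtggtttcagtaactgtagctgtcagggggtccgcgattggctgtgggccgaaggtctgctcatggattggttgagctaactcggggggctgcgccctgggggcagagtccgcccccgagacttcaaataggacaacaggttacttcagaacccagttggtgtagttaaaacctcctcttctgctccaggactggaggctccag
Cldn18 upstream start (chr9:99717218-99717517, minus strand): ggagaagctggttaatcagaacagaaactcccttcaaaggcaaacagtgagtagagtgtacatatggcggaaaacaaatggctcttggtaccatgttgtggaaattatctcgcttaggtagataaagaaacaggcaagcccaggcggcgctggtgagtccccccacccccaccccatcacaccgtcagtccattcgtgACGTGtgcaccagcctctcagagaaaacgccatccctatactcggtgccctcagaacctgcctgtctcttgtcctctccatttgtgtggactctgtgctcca
Cldn18 internal start (chr9:99710014-99710313, minus strand): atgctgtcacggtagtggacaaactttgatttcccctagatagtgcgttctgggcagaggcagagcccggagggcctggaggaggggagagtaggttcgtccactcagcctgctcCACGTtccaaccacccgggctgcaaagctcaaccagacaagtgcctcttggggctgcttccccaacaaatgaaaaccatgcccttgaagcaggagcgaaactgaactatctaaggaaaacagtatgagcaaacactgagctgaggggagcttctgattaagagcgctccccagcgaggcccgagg
Cldn3 (chr5:134985964-134986263, plus strand): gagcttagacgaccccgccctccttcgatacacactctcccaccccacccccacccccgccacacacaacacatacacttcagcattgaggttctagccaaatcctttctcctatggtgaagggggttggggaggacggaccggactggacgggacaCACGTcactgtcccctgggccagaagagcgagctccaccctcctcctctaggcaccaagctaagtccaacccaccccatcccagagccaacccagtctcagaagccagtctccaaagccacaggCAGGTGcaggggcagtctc
Cldn4 (chr5:134946885-134947184, minus strand): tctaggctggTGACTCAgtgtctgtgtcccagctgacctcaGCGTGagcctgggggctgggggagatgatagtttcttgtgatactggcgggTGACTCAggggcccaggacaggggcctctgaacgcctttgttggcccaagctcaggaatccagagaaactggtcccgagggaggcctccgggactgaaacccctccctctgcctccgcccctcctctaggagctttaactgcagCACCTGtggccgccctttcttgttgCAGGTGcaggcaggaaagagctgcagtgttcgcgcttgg
The Cldn5 window held none of the 4 motifs, each Cldn18 window held 1 HRE core, Cldn3 held 1 E-box and 1 HRE core, and Cldn4 held 2 E-boxes, 2 AP-1 motifs and 1 HRE core.

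Compared per length, as CPM per kilobase of exon (CPM per kb), the 9 genes kept the same order in both groups. Cldn5 had the highest level, 299 ± 65.3 CPM per kb in BLM (SD, n = 4) and 376 ± 96.4 in BLM+HBO (SD, n = 3), followed by Cldn18 with 175 ± 32.0 and 203 ± 9.95. F11r (112 in BLM), Esam (95.4) and Cldn3 (85.7) came next. The gaps from F11r to Esam and from Esam to Cldn3 were smaller than the summed SDs of the neighbours. Within the same mouse, F11r lay above Esam in 7 of 7 mice, and Esam above Cldn3 in only 4 of 7. Tjp1 (41.3 CPM per kb in BLM), Cldn7 (27.6), Cgn (20.5) and Ocln (12.4) were lower. Here too the gaps from Tjp1 to Cldn7 and from Cldn7 to Cgn were within the summed SDs. Within the same mouse, Tjp1 lay above Cldn7 in 6 of 7 mice and Cldn7 above Cgn in 7 of 7.

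**Figure D2:**
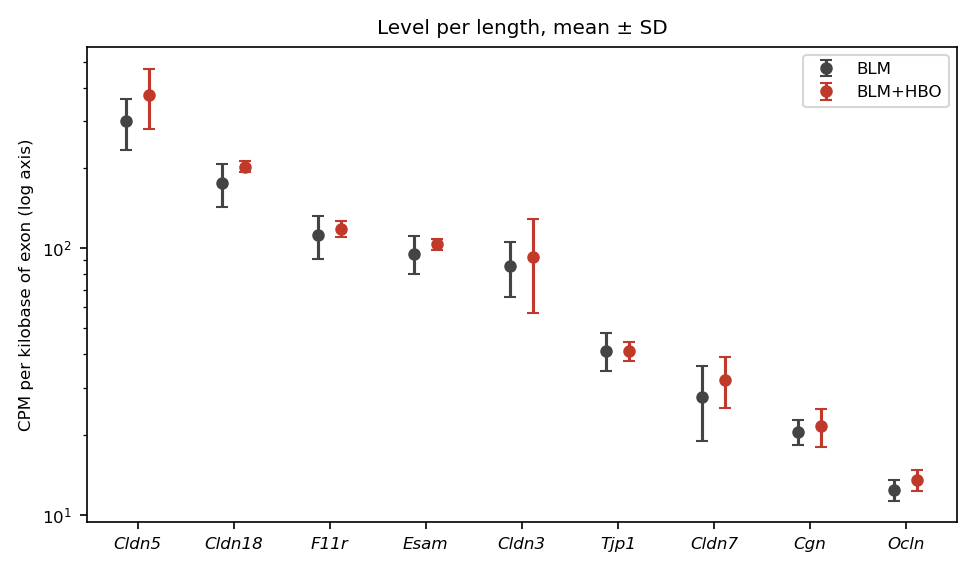
Level per length of the 9 genes, in CPM per kilobase of exon on a log axis, as mean ± SD over 4 BLM mice (grey) and 3 BLM+HBO mice (red). Both groups run in the same order, from Cldn5 (299 in BLM) to Ocln (12.4).

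Gene positions are given in GRCm38, the build the authors mapped to. Among the endothelial genes, Cldn5 (ENSMUSG00000041378.2, chr16:18776847-18778262, plus strand, 1 exon) encodes claudin-5, which seals vessel walls. Its level was 289, 468, 497 and 439.8 CPM in BLM 1 to 4 and 619, 375 and 603 CPM in BLM+HBO 1 to 3. BLM+HBO 1 and 3 were above every BLM mouse, and BLM+HBO 2 was below 3 of the 4. The log2 fold change of 0.33 (SE 0.22, 95% interval -0.17 to 0.83) was the largest of the 9 and did not pass the test (adjusted P = 0.617, edgeR). Its size depended on single mice. Without BLM+HBO 2 it was 0.53, with an unadjusted P below 0.05, an adjusted P of 0.243 (edgeR) and still under a 1.5-fold change, and without BLM 1 it was 0.18.

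Esam (ENSMUSG00000001946.14, chr9:37528078-37538319, plus strand) encodes an adhesion molecule of endothelial contacts that platelets carry too. Its level was 221, 253, 304 and 316 CPM in BLM 1 to 4 and 299.7, 282 and 309.7 CPM in BLM+HBO 1 to 3. The treated mice lay inside the BLM range. Its log2 fold change was 0.12 (SE 0.14, 95% interval -0.19 to 0.43, adjusted P = 0.792, edgeR).

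Other endothelial genes were measured beside this pair. The summed level of 10 endothelial markers was 3552 to 4480 CPM in BLM and 3864 to 4415 CPM in BLM+HBO. Of the 10, 9 had a higher and 1 a lower mean in BLM+HBO, and none passed the limits for a changed gene. The lower one, Vwf (von Willebrand factor), had a log2 fold change of -0.41 (adjusted P = 0.423, edgeR) and was lower in every treated mouse than in any BLM mouse. Taken relative to the mean log2 CPM of the 10 markers in the same mouse, the difference between the groups was 0.18 for Cldn5, against 0.32 for its log2 CPM alone. For Esam it was -0.0086 relative to the markers and 0.13 alone. These differences relative to markers were not tested. The summed level of 6 platelet markers was 41.3 to 56.6 CPM in BLM and 48.8 to 140 CPM in BLM+HBO, with Gp1bb at 0 in every mouse, and that of 7 heart muscle markers was 58.8 to 168 and 150 to 629 CPM. The part of either in the endothelial values was not tested.

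Among the epithelial genes, Cldn18 (ENSMUSG00000032473.13, chr9:99689461-99717267, minus strand) encodes claudin-18, and the gene is known for different first exons in lung and stomach, which gene counts pool. Its level was 575, 790.2, 875 and 879 CPM in BLM 1 to 4 and 922, 852 and 934 CPM in BLM+HBO 1 to 3. BLM 1 stood below the other 6 mice, and BLM+HBO 1 and 3 were above every BLM mouse. The log2 fold change was 0.21 (SE 0.16, 95% interval -0.15 to 0.57) and did not pass the test (adjusted P = 0.661, edgeR).

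Cldn18 was also set against the markers of alveolar cells. The spread of its log2 CPM from the lowest to the highest mouse was 0.70, and 0.23 once the mean log2 CPM of the 8 AT1 markers in the same mouse was taken off. On that relative scale the BLM mice lay between 0.54 and 0.73 and the BLM+HBO mice between 0.74 and 0.77, a group difference of 0.11 that was not tested. Of the 8 AT1 markers, 5 had a higher and 3 a lower mean in BLM+HBO. Their log2 fold changes ran from -0.31 for Pdpn to 0.48 for Rtkn2, so their mean joins markers of opposite direction. Against 8 AT2 markers the difference had the opposite sign, -0.14, with overlapping groups. The direction of the relative Cldn18 level thus depended on which alveolar cell type it was set against.

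**Figure D3:**
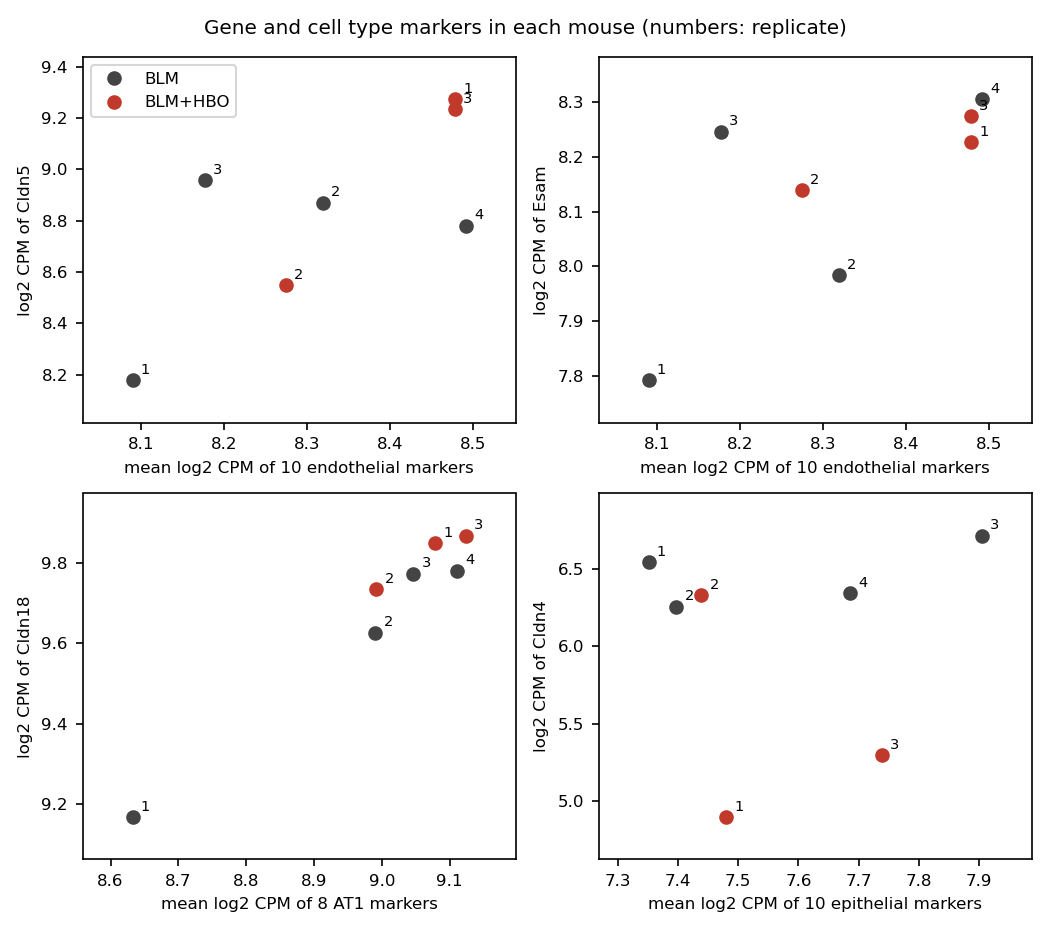
Log2 CPM of Cldn5, Esam, Cldn18 and Cldn4 (vertical axes) against the mean log2 CPM of cell type markers (horizontal axes) in 4 BLM mice (grey) and 3 BLM+HBO mice (red), with the replicate number at each point. BLM 1 is lowest in both Cldn18 and the AT1 markers, and Cldn4 is low in BLM+HBO 1 and 3 at epithelial marker levels inside the BLM range.

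Cldn3 (ENSMUSG00000070473.4, chr5:134986214-134987472, plus strand, 1 exon) encodes claudin-3, a sealing claudin of airway and AT2 cells. Its level was 82.8, 117, 139 and 92.3 CPM in BLM 1 to 4 and 104, 80.0 and 167 CPM in BLM+HBO 1 to 3. The lowest and the highest of the 7 mice were both in the BLM+HBO group. The log2 fold change of 0.11 (SE 0.25, 95% interval -0.45 to 0.68, adjusted P = 0.905, edgeR) changed sign to -0.24 without BLM+HBO 3. The antisense gene Wbscr25 shares 40 bases (3.18%) with its exon and had 1 to 9 reads per mouse, and reads overlapping both genes are left out under the default counting.

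Cldn7 (ENSMUSG00000018569.12, chr11:69964779-69967885, plus strand) encodes claudin-7, which also lines the side walls of epithelial cells. Its level was 38.7, 44.6, 77.1 and 54.6 CPM in BLM 1 to 4 and 69.1, 47.0 and 71.4 CPM in BLM+HBO 1 to 3. The treated mice lay inside the BLM range, whose top was BLM 3. The groups differed by a log2 fold change of 0.22 (SE 0.23, 95% interval -0.31 to 0.74, adjusted P = 0.767, edgeR). Without BLM 3 it was 0.44, with an unadjusted P below 0.05, an adjusted P of 0.413 (edgeR) and under a 1.5-fold change, and without BLM 1 it was 0.09.

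Cgn (ENSMUSG00000068876.16, chr3:94760069-94786515, minus strand) encodes cingulin, the plaque protein of epithelial junctions. Its level was 115, 112, 127 and 141 CPM in BLM 1 to 4 and 112, 123 and 153 CPM in BLM+HBO 1 to 3. The groups covered nearly the same range, and the log2 fold change was 0.07 (SE 0.14, 95% interval -0.24 to 0.37, adjusted P = 0.894, edgeR). It was -0.08 without BLM+HBO 3. The summed level of 10 epithelial markers was 2590 to 3723 CPM in BLM and 2676 to 3455 CPM in BLM+HBO, and none of the 10 passed the limits for a changed gene. Relative to their mean log2 CPM, the group differences were 0.11 for Cldn3, 0.27 for Cldn7, 0.26 for Cldn18 and 0.09 for Cgn, and all 4 pairs of groups overlapped. In log2 CPM alone the differences were 0.08 for Cldn3, 0.24 for Cldn7, 0.23 for Cldn18 and 0.06 for Cgn. Relative to the 8 AT2 markers the difference for Cldn3 was -0.29, of the opposite sign and with overlapping groups, so its direction depended on the markers chosen.

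Of the genes that epithelium and endothelium share, Ocln (ENSMUSG00000021638.12, chr13:100496507-100552718, minus strand) encodes occludin, a strand protein that regulates the seal. Its level was 48.2, 56.9, 48.4 and 55.7 CPM in BLM 1 to 4 and 60.9, 51.0 and 58.7 CPM in BLM+HBO 1 to 3. Its replicates were close together, and the log2 fold change of 0.12 had the smallest SE of the 9 (0.11, 95% interval -0.13 to 0.37, adjusted P = 0.727, edgeR).

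Tjp1 (ENSMUSG00000030516.14, chr7:65296165-65527781, minus strand) encodes ZO-1, the scaffold that holds claudins, occludin and JAM proteins together. Its level was 352, 350.1, 243 and 345 CPM in BLM 1 to 4 and 333, 291 and 338 CPM in BLM+HBO 1 to 3. BLM 3 stood apart below the other 6 mice. The log2 fold change was -0.01 (SE 0.15, 95% interval -0.35 to 0.33, adjusted P = 0.988, edgeR), and its sign changed with the scaling and with the mice left out, between -0.12 and 0.05. Tjp1 has the longest exons of the 9, 7811 bases. In BLM 3 the 4714 tested genes with exons of 6000 bases or more lay at a median log2 deviation of -0.08 and the 3692 genes under 2000 bases at 0.15, and the part of transcript length in the low Tjp1 value was not tested.

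F11r (ENSMUSG00000038235.4, chr1:171437535-171464603, plus strand) encodes JAM-A, an adhesion molecule that epithelium, endothelium, platelets and leukocytes carry. Its level was 248, 256, 359 and 331 CPM in BLM 1 to 4 and 293, 337 and 316 CPM in BLM+HBO 1 to 3. The treated mice lay inside the BLM range, and the log2 fold change was 0.08 (SE 0.15, 95% interval -0.26 to 0.42, adjusted P = 0.884, edgeR). The summed level of 8 leukocyte markers was 734 to 938 CPM in BLM and 535 to 819 CPM in BLM+HBO, and its part in the F11r value was not tested.

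**Figure D4:**
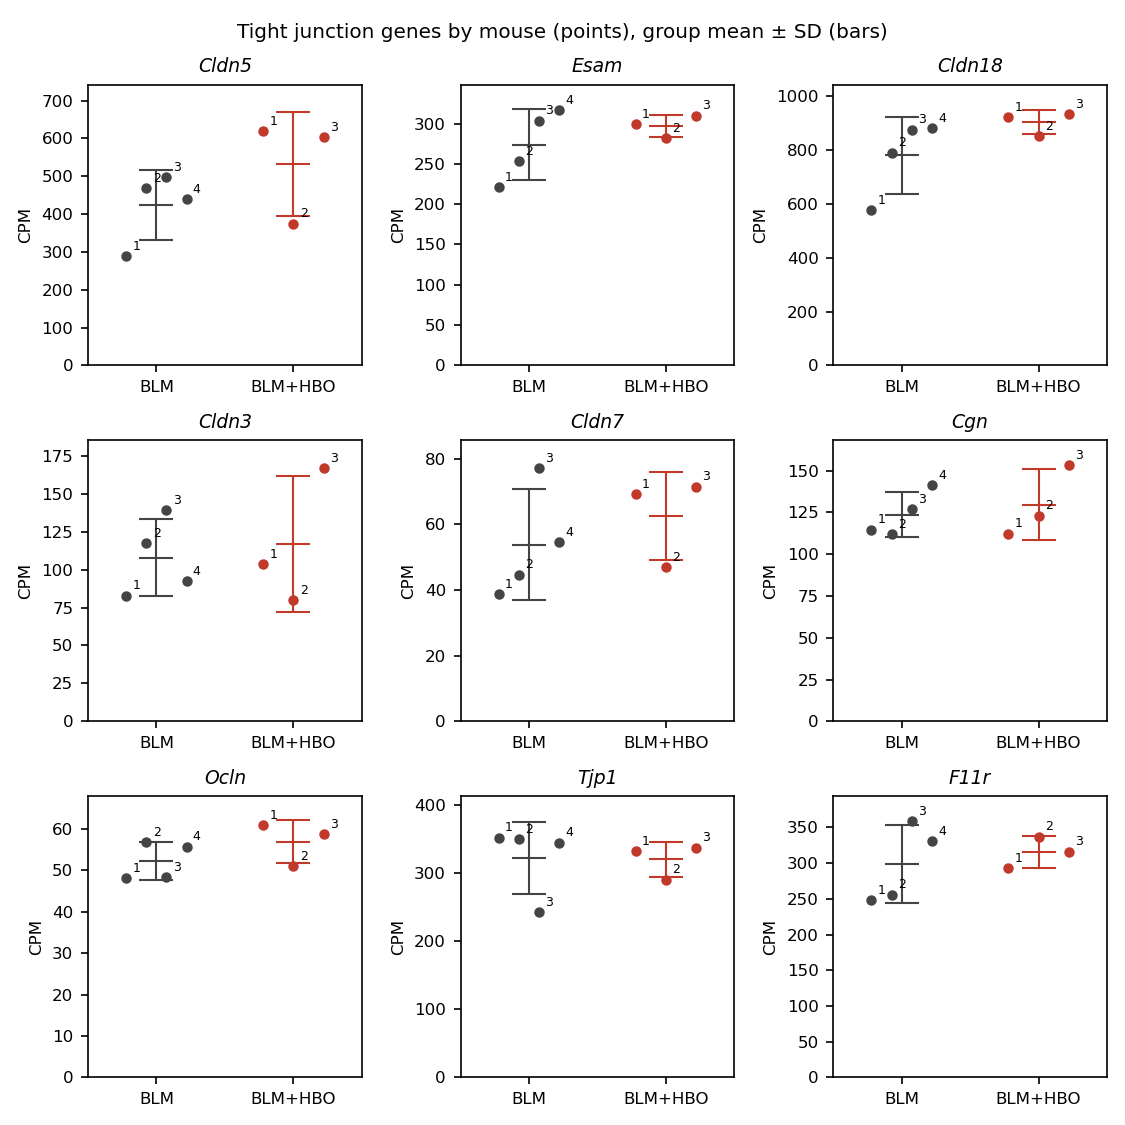
CPM of the 9 genes in each mouse, 1 panel per gene with its own axis from 0, with 4 BLM mice (grey) and 3 BLM+HBO mice (red) as numbered points and the group mean ± SD as bars. The groups overlap in every panel, BLM 1 is the lowest BLM mouse in 7 panels and BLM+HBO 2 the lowest treated mouse in 7.

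The same mice were low for most of the 9 genes. BLM 1 was the lowest BLM mouse for 7 of them and the highest for 1, Tjp1. The 2 genes for which it was not the lowest, Cgn and Tjp1, have the longest exons of the 9 (6044 and 7811 bases). In BLM 1 the tested genes with exons of 6000 bases or more lay at a median log2 deviation of 0.09 and those under 2000 bases at -0.07, the reverse of BLM 3, and the part of length in these orders was not tested. BLM+HBO 2 was the lowest treated mouse for 7, and BLM+HBO 3 the highest for 6. BLM 1 also had the lowest summed epithelial, AT1, AT2, airway and endothelial markers of the BLM mice and the highest summed fibroblast markers. The 8 fibroblast markers summed to 6556 to 10626 CPM in BLM and 2382 to 6979 CPM in BLM+HBO, where BLM+HBO 2 had the 6979. Of these 8, 1 passed the limits as higher and 4 as lower in BLM+HBO. The 8 airway markers summed to 5520 to 11658 and 9149 to 18109 CPM, the 4 mesothelial markers to 366 to 653 and 96.9 to 432 CPM, and the 4 lymphatic markers to 280 to 523 and 306 to 489 CPM. Most of the airway sum was Scgb1a1, with 4844 CPM in BLM 1 and 17061 CPM in BLM+HBO 3. Of the airway markers 5 had a higher and 3 a lower mean in BLM+HBO. Of the lymphatic markers 1 (Lyve1) had a higher and 3 a lower mean. Over all tested genes, 3.40% passed the study's limits as higher and 2.89% as lower. By these limits 1 of 8 AT2 markers was higher. Of 8 airway markers 1 was higher and 1 lower (Krt5, at 0 in BLM+HBO 1), and of 4 mesothelial markers 2 were lower. Of 8 leukocyte markers 1 was higher and 1 lower. Of 5 tested platelet markers 2 were higher, as were all 7 heart muscle markers. No AT1, epithelial, endothelial or lymphatic marker passed these limits. The part of these cell types in the tight junction values was not tested.

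The rest of the junction was read from 3 lists of 62 further genes, of which 60 were in the table and 50 were tested. In these 50 the mean was higher in BLM+HBO for 26 and lower for 24, the median log2 fold change was 0.0040, and none passed the adjusted P limit. By the study's limits 4 of 50 passed, Cldn1 as higher and Cldn2, Cldn4 and Clmp as lower, near the background of 6.29%. The count was 1 when BLM+HBO 1 was left out, 2 when BLM+HBO 3 was, and 5 when BLM+HBO 2 was. Another 2 genes, Jam2 and Prkcz, had an unadjusted P below 0.05 at smaller fold changes. For 2 of the 50, Cldn1 and Cldn12, the groups did not overlap, beside 8.77% of all tested genes. A count of 2 is too small to set the 50 apart from that share.

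Cldn4 (ENSMUSG00000047501.3, chr5:134945119-134946934, minus strand, 1 exon) encodes claudin-4, a sealing claudin that alveolar epithelium raises upon injury, and lies 39279 bases from Cldn3. Its level was 93.0, 76.3, 105 and 80.9 CPM in BLM 1 to 4 and 29.8, 80.4 and 39.3 CPM in BLM+HBO 1 to 3. BLM+HBO 1 and 3 were below every BLM mouse, and BLM+HBO 2 was inside the BLM range. Its log2 fold change was -0.83 (SE 0.30, adjusted P = 0.423, edgeR). Leaving out BLM+HBO 2 gave -1.36 with an adjusted P of 0.0264 (edgeR), and with no filter on low counts the adjusted P was 0.0231 (edgeR). It was -0.57 in the fit that lacked BLM+HBO 1 and -0.69 in the one that lacked BLM+HBO 3, and in both the unadjusted P was above 0.05.

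Cldn3, its neighbour among the 9, had another pattern over the mice. The ratio of Cldn4 to Cldn3 CPM was 1.12, 0.651, 0.753 and 0.877 in BLM 1 to 4 and 0.287, 1.0 and 0.236 in BLM+HBO 1 to 3. The ratio was chosen after the values were seen and was not tested. In log2 CPM alone, Cldn4 differed by -0.95 between the groups and Cldn3 by 0.08. Relative to the mean log2 CPM of 10 epithelial markers, Cldn4 differed by -0.92 between the groups, against 0.11 for Cldn3 on the same scale, while against AT2 markers Cldn3 differed by -0.29. Of these 10 markers, 6 had a higher and 4 a lower mean in BLM+HBO, and none passed the limits. The 4 lower were the keratin genes Krt7, Krt8, Krt18 and Krt19, with log2 fold changes from -0.34 to -0.26. The 6 higher ran from 0.03 for Epcam to 0.41 for Nkx2-1. Krt7 was lower in every treated mouse than in any BLM mouse, and the groups of the other 9 overlapped. The mean of the 10 thus joins markers of opposite direction. Of the motifs searched in the promoters printed above, the Cldn4 window held 2 AP-1 motifs and 2 E-boxes. The Cldn3 window held no AP-1 motif and 1 E-box. The part of either motif in these values was not tested.

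Cldn1 (ENSMUSG00000022512.3, chr16:26356642-26371841, minus strand) encodes claudin-1, a sealing claudin. Its level was 9.53, 9.13, 5.76 and 8.32 CPM in BLM 1 to 4 and 17.8, 10.4 and 11.7 CPM in BLM+HBO 1 to 3. Every treated mouse was above every BLM mouse. Its log2 fold change was 0.70 (SE 0.24, adjusted P = 0.423, edgeR). It was 0.43, with an unadjusted P above 0.05, when BLM+HBO 1 was left out and 0.56, under a 1.5-fold change, when BLM 3 was.

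Cldn2 (ENSMUSG00000047230.6, chrX:139800828-139811386, plus strand) encodes claudin-2, which forms pores for cations and loosens the seal. Its level was 11.1, 5.19, 16.1 and 11 CPM in BLM 1 to 4 and 4.58, 5.55 and 3.79 CPM in BLM+HBO 1 to 3. BLM 2 lay among the treated mice and the other 3 BLM mice lay above all of them. The log2 fold change of -1.23 (SE 0.35, adjusted P = 0.423, edgeR) passed the study's limits in every fit that left out 1 mouse, and its adjusted P was 0.0506 by DESeq2 and 0.0215 by edgeR with no filter on low counts.

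Clmp (ENSMUSG00000032024.10, chr9:40685962-40785319, plus strand) encodes an adhesion molecule of the same family as CXADR. Its level was 33.5, 28.2, 26.4 and 29.0 CPM in BLM 1 to 4 and 10.7, 27.7 and 13.8 CPM in BLM+HBO 1 to 3. As with Cldn4, BLM+HBO 2 lay in the BLM range and the other 2 treated mice below it. Its log2 fold change was -0.75 (SE 0.28, adjusted P = 0.438, edgeR). The unadjusted P went above 0.05 when BLM 1 (-0.68), BLM+HBO 1 (-0.50) or BLM+HBO 3 (-0.61) was left out, and the log2 fold change without BLM+HBO 2 was -1.25, with an adjusted P of 0.0266 (edgeR).

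Jam2, which encodes the endothelial JAM-B, was at 125, 108, 92.7 and 83.7 CPM in BLM 1 to 4 and 72.9, 92.4 and 72.6 CPM in BLM+HBO 1 to 3, with a log2 fold change of -0.37 (SE 0.16, adjusted P = 0.459, edgeR). Prkcz, which encodes the polarity kinase PKC-zeta, was at 36.6, 45.2, 45.8 and 40.4 CPM in BLM and 53.8, 42.4 and 64.8 CPM in BLM+HBO, with a log2 fold change of 0.35 (SE 0.15, adjusted P = 0.46, edgeR). Both had overlapping groups, and BLM+HBO 2 lay inside the BLM range for both. The unadjusted P of Jam2 went above 0.05 when BLM 1, BLM 2, BLM+HBO 1 or BLM+HBO 3 was left out, and that of Prkcz when BLM 1, BLM 2, BLM 4, BLM+HBO 1 or BLM+HBO 3 was.

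**Figure D5:**
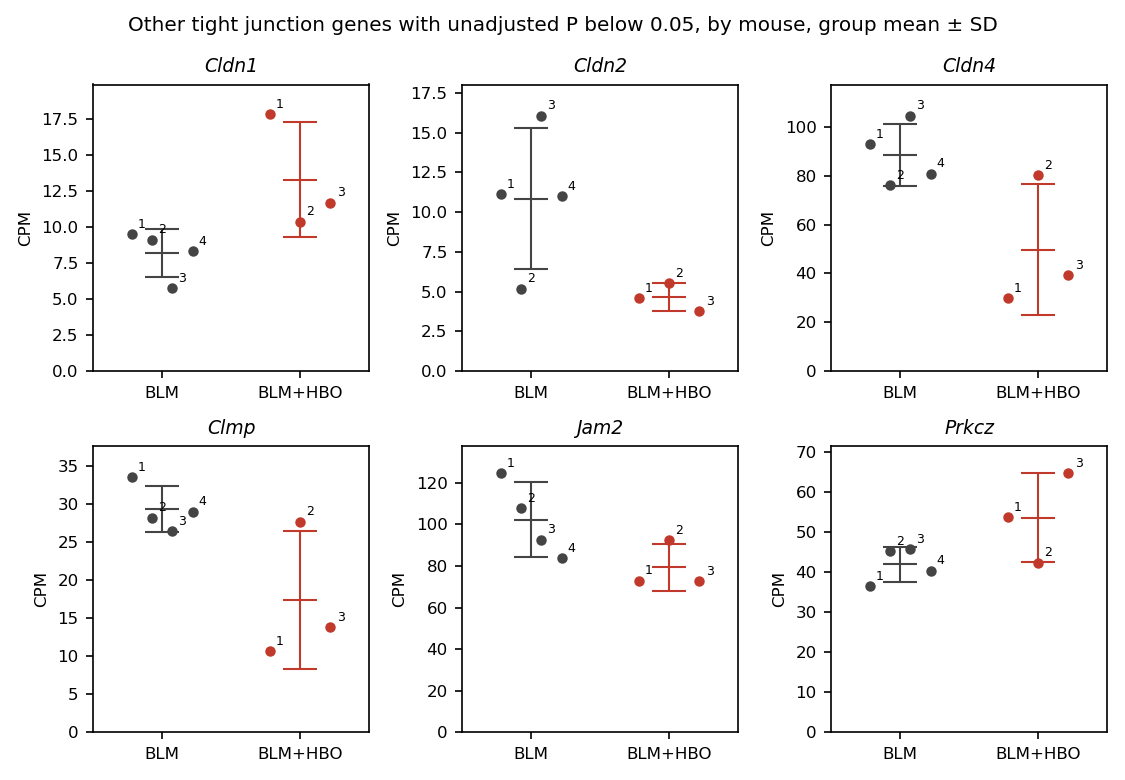
CPM of the 6 other tight junction genes with unadjusted P below 0.05 in each mouse, 1 panel per gene with its own axis from 0, with numbered points for 4 BLM (grey) and 3 BLM+HBO mice (red) and the group mean ± SD as bars. BLM+HBO 2 lies within the BLM range for Cldn2, Cldn4, Jam2, Clmp and Prkcz, and the groups are apart for Cldn1.

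The other junction genes at high level per length did not pass. Of 24 further claudins and claudin-like genes, 22 were in the table, 12 were tested and their median log2 fold change was -0.07. The 10 untested ones had at most 15 reads in any mouse, and Cldn16, Cldn22 and Cldn34a had 0 reads in all 7. Besides Cldn4, the highest per length were Cldnd1 (15.1 CPM per kb over the 7 mice, log2 fold change -0.01), Cldn12 (6.89, log2 fold change 0.23) and Cldn15 (6.16, log2 fold change -0.35). Cldn12 was at 28.5, 23.6, 28.4 and 28.1 CPM in BLM 1 to 4 and 34.1, 31.4 and 29.9 CPM in BLM+HBO 1 to 3.

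Among 11 further membrane proteins the median log2 fold change was -0.12, and those highest per length beside Jam2 were the polarity protein gene Crb3 (24.2 CPM per kb, log2 fold change 0.03), the adhesion molecule gene Cxadr (18.7, log2 fold change -0.14) and Lsr (13.2, log2 fold change -0.14), which encodes angulin-1 of tricellular contacts. Among 27 plaque, polarity and signalling genes none passed the study's limits, and the median log2 fold change was 0.01. The highest per length there were the small GTPase gene Rhoa (63.4 CPM per kb, log2 fold change -0.07), Ybx3 (51.5, log2 fold change -0.27), which encodes the ZO-1 partner ZONAB, the polarity gene Pard6b (36.3, log2 fold change -0.14) and Amotl2 (33.7, log2 fold change 0.10). The plaque list summed to 3091 to 3439 CPM in BLM and 3188 to 3461 CPM in BLM+HBO, and the 9 barrier genes to 1972 to 2669 and 2437 to 2951 CPM.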

How the data were processed

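Total RNA from the lungs of 7 mice was made into NEBNext Ultra libraries by the authors and sequenced as paired ends. Trimming was by Trim Galore and mapping to GRCm38 by HISAT2 (2.2.0 per the labels). The deposited values are raw counts of reads that the authors assigned to genes with featureCounts, whose default settings ignore strand and leave out reads with more than 1 mapping place or more than 1 gene. The deposited table also held gene coordinates and a length per gene, the summed exons, used for CPM per kb. The annotation release was not given in the sources used here. GENCODE vM21 gave a symbol to 55141 of 55401 genes, with 54349 identifiers in the same version.

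Here the counts were filtered with filterByExpr (at least 10 counts, and 15 in total), scaled by TMM (factors 0.964 to 1.036), and BLM+HBO was compared with BLM by edgeR 4.0.16's quasi-likelihood test (R 4.3.3, common biological coefficient of variation 0.222) over 17465 genes, with Benjamini-Hochberg adjustment. Log2 CPM used a prior count of 2. The SE was taken as the log2 fold change over the root of its F statistic, and the 95% intervals use it, so they are approximate. DESeq2 1.42.0 and limma 3.58.1 were alternatives, beside a replicate block, RLE and upper-quartile factors, a robust fit, no filter or one of 1 CPM in 3 mice, a 1.2-fold limit, and leaving out each mouse. The fits were tested on simulated data. Each mouse was 1 replicate, and no pair of libraries agreed within sampling noise.

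The 9 genes and all lists were chosen with earlier results of these data known. Named were all 9, the genes of 3 further junction lists with unadjusted P below 0.05, the 4 of each list with the highest level per length, and markers where their list is discussed. Promoters came from RefSeq. Intervals cover the spread between mice, 4 and 3 per group.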

Additional observations from a re-analysis of the deposited data

Results flagged for a closer look

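The log2 CPM of the 4 BLM mice was examined in 27 named genes (the 9 barrier genes, the other junction genes named with values, and Vwf and Krt5) for a single mouse far from the others. In 3 of them the gap to the nearest mouse, as a share of the group's range, was above the 95% critical value of Dixon's test for 4 mice, a test that about 1 in 20 groups passes by chance. For Tjp1 it was 0.945, with BLM 3 low at 243 CPM beside 345 to 352 CPM in the other mice. For Cldn12 it was 0.924, with BLM 2 low at 23.6 CPM beside 28.1 to 28.5 CPM. For Pard6b it was 0.853, with BLM 1 low at 109 CPM beside 132 to 136 CPM. BLM 3 was the lowest BLM mouse for no other of the 9 barrier genes and the highest for 4.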

How the results depend on the processing

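None of the 9 barrier genes was called under any alternative, at either limit. Their direction held in all but 9 of their values under the alternatives. For the other 6 junction genes, 83 values kept their direction and their side of the study's unadjusted limits, and 7 kept the direction but no longer passed. The adjusted P fell below 0.05 for Cldn2 (0.0215) and Cldn4 (0.0231) with no filter, and for Cldn4 (0.0264) and Clmp (0.0266) without BLM+HBO 2. Cldn3 ran from -0.24 to 0.32 and Cgn from -0.076 to 0.16 over the fits leaving out 1 mouse, both negative only without BLM+HBO 3. Tjp1 had a log2 fold change of 0.0033 by limma-trend, 0.018 with upper-quartile factors and 0.041 with the replicate block, and ran from -0.12 to 0.054 over the leave-outs. The count of other junction genes called (4) was 6 at a fold change above 1.2 and ran from 1 to 5 over the leave-outs. Over all genes, the 1098 calls became 1940 with no filter and 1804 at a fold change above 1.2, and 659 to 1914 over the leave-outs. At adjusted P below 0.05 the 0 of edgeR became 128 by DESeq2, 387 with no filter and 0 to 267 over the leave-outs, with 267 without BLM+HBO 2. The causes were not tested. Without the filter, genes with low counts enter the fit as well, and each leave-out has fewer mice. With no filter the unadjusted P of Cldn2 and Cldn4 fell as well (edgeR). It went from 0.00569 to 0.000146 for Cldn2 and from 0.0188 to 0.000169 for Cldn4. The replicate numbers were not taken as pairs. Mice of equal number had correlations of deviations of -0.00797, -0.0660 and 0.161, inside the range for unequal numbers (-0.179 to 0.165). So few correlations cannot settle whether the mice were paired. The replicate block kept the count of junction calls at 4.

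The depth of at least 702 reads per barrier gene and mouse left the spread between mice as the limit. A 1.5-fold increase could not be told from none for Cldn3, Cldn7 and Cldn5. Messenger RNA levels do not measure protein, its place in the membrane or leak, and nothing here separates cell number from RNA per cell.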
